A study of Saccharomyces cerevisiae with 6 samples.

Results

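Aminoacyl-tRNA synthetases, the enzymes that attach each amino acid to its tRNA, were followed in budding yeast (Saccharomyces cerevisiae) through 32 genes, 18 for cytosolic and 14 for mitochondrial enzymes. The genes were taken by name as cytosolic and mitochondrial members of this enzyme family, and no measured value entered that rule, although the family was picked for description with earlier results of these data known. Each of the 32 has exactly 1 probe set in the platform annotation, out of 5656 genes with a probe set of 1 symbol.

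The study compared 2 groups of 3 oligonucleotide arrays, each hybridised with 1 sample. K91A 1 to K91A 3 carry a histone H4 allele with alanine in place of lysine 91, and WT 1 to WT 3 come from a strain labelled wild type for histone H4. All cells were grown in YPD, a rich glucose medium, and collected while growing exponentially, and total RNA was hybridised. The labels name no strain background, no other allele and no culture, so the p-values cover the spread among these arrays, which may be technical. In a bulk culture, fewer cells that express a gene and less of its RNA per cell cannot be told apart. K91A 3 is K91A by its title and WT by its description, and was grouped by title. The analysis asked whether synthetase transcripts differed between K91A and WT, and whether the cytosolic and mitochondrial classes did so alike.

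A synthetase activates its amino acid with ATP and then transfers it to the end of the matching tRNA, and the charged tRNA feeds the ribosome. Yeast makes proteins in the cytosol and in mitochondria, and for most amino acids a separate nuclear gene encodes the enzyme of each compartment. For some amino acids 1 gene serves both through different start sites. Uncharged tRNA, which builds up when charging falls short, activates the kinase Gcn2 and through it the transcription factor Gcn4.

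Levels are log2(intensity + 16) after quantile normalisation, so they are relative to the bulk of transcripts on each array, and fold changes are K91A minus WT on that scale. Values by array are given in the order of the replicate numbers. Of 6931 probe sets tested with limma, 30.2% passed at an adjusted p of 0.05, 14.8% as lower and 15.4% as higher in K91A, with a median log2 fold change of -0.070. At an unadjusted p under 0.05, 1539 of the 6931 were lower and 1496 higher, and unadjusted counts below are to be read beside these. Median intensities ranged from 1828.2 to 3116.5 over the WT arrays and from 745 (K91A 3) to 2564 over the K91A arrays. Between arrays, Pearson's r of log2 levels was 0.918 to 0.976 within WT and 0.764 to 0.870 within K91A. For a K91A with a WT array it was 0.644 to 0.779, a range that overlaps the one within K91A. The ratio of 5' to 3' signal of the actin transcript averaged 0.861 ± 0.017 in K91A and 0.196 ± 0.146 in WT (SD, n = 3 each). K91A 3 stood apart in the Lys control, whose middle probe set over its 3' probe set read 0.478 there against 5.20 to 8.61 on the other 5 arrays, and in its 51 empty cells against 33. The part of these differences in the results was not tested, and the comparisons by length below give values only.

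Of the 18 cytosolic synthetase genes, 9 were lower in K91A by limma's test and 0 higher, against 14.8% lower and 15.4% higher among all probe sets. At an unadjusted p under 0.05, 13 were lower and 0 higher, beside 1539 lower and 1496 higher of the 6931 probe sets. All 18 log2 fold changes were negative, against 53.4% of all probe sets, and their median was -0.72. On 16 of the 18 genes every K91A array lay below every WT array, which held for 27.4% of all probe sets (51.0% in either direction). The other 2 were CDC60, the leucyl enzyme, and DPS1, the aspartyl enzyme. Mitochondrial synthetase genes had fold changes of both signs, 6 negative and 8 positive, with a median of 0.26. Of 14 genes 2 (14.3%) were lower and 1 (7.1%) higher, shares no larger than the 14.8% and 15.4% of all probe sets. On 2 mitochondrial genes every K91A array lay below every WT array and on 2 every one lay above, which held for 27.4% and 23.6% of all probe sets. The difference between the classes is given by these counts and medians, with no test of its own.

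**Figure D1:**
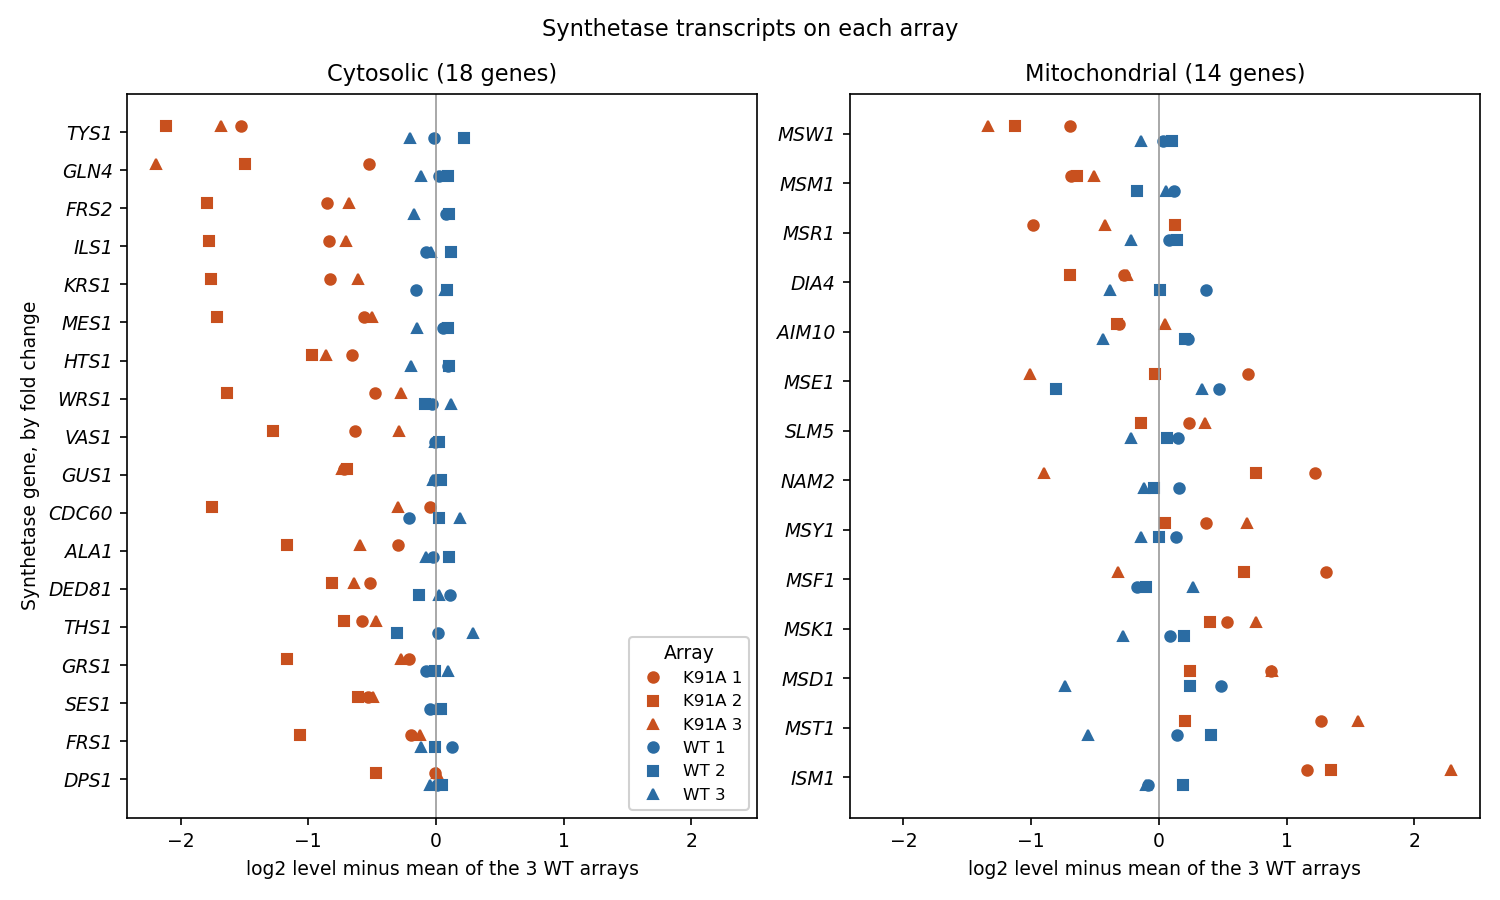
Log2 level of each synthetase gene on each array, minus the mean of the 3 WT arrays for that gene, with cytosolic genes on the left and mitochondrial genes on the right. Each row is a gene, ordered by fold change, and each symbol 1 array (orange K91A, blue WT). Cytosolic genes lie to the left on the K91A arrays, with K91A 2 lowest for 16 of 18, and mitochondrial genes spread to both sides.

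TYS1, the cytosolic tyrosyl-tRNA synthetase, had the most negative fold change of the 32 genes. Its deposited intensity was 3035 in K91A 1, 1730.3 in K91A 2 and 838 in K91A 3, while the WT arrays read 9642.5, 13936 and 6362. The log2 level was 11.26, 10.68 and 11.11 on the K91A arrays against 12.77, 13.01 and 12.59 on the WT arrays. The highest K91A value thus lay well below the lowest WT value. It fell by 1.78 on the log2 scale (SE 0.23, 95% interval -2.31 to -1.24, limma adjusted p = 0.00331), a 3.42-fold lower level. Of the 12 member calls, that of TYS1 alone held without each array in turn (adjusted p 0.0057 to 0.0209).

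GLN4, the glutaminyl-tRNA synthetase, was next. Its log2 level was 12.83, 11.86 and 11.16 over the K91A arrays in order and 13.38, 13.45 and 13.23 on the WT arrays. K91A 3 was the lowest and K91A 1 came closest to WT, so the size of the fall differed between K91A arrays more than for any other called cytosolic gene. The log2 fold change was -1.40 (SE 0.40, adjusted p = 0.0374), and leaving out K91A 2 (adjusted p = 0.0774), K91A 3 (0.0553), WT 1 (0.104), WT 2 (0.113) or WT 3 (0.0809) ended the call. Without K91A 3 the fold change was -0.996.

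Phenylalanyl-tRNA synthetase is built from 2 kinds of subunit, encoded by FRS1 and FRS2, and only FRS2 passed. FRS2 had log2 levels of 11.95, 11.02 and 12.13 on the K91A arrays and 12.89, 12.91 and 12.64 on the WT arrays (-1.11, SE 0.31, adjusted p = 0.0365). FRS1 had 14.28, 13.41 and 14.35 against 14.60, 14.47 and 14.36 (-0.46, SE 0.26, adjusted p = 0.215). In FRS1 K91A 2 stood apart, and K91A 3 was level with WT 3. Whether the 2 subunit genes differed from each other was not tested, and their 95% intervals, -1.85 to -0.37 for FRS2 and -1.08 to 0.15 for FRS1, overlap.

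ILS1 and KRS1, the isoleucyl and lysyl enzymes, had the same order of K91A arrays as FRS2. ILS1 had log2 levels of 11.79, 10.86 and 11.93 on the K91A arrays and 12.56, 12.76 and 12.59 on the WT arrays (log2 fold change -1.11, SE 0.31, adjusted p = 0.0341). KRS1 had 12.60, 11.66 and 12.82 against 13.28, 13.51 and 13.50 (log2 fold change -1.07, SE 0.31, adjusted p = 0.0408). In both, as in FRS2, K91A 2 lay clearly below the other K91A arrays, and all 3 K91A arrays stayed below WT. The calls of FRS2, ILS1 and KRS1 ended without K91A 1, WT 1, WT 2 or WT 3 (adjusted p 0.0511 to 0.127 over these settings).

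The other 4 called cytosolic genes fell by less, with a narrow spread. HTS1, whose gene provides the histidyl enzyme of both compartments, had log2 levels of 13.50, 13.19 and 13.30 on the K91A arrays and 14.25, 14.27 and 13.97 on the WT arrays (log2 fold change -0.83, SE 0.17, adjusted p = 0.0122). GUS1, the glutamyl enzyme, which binds the cofactor Arc1 together with the methionyl enzyme Mes1, had 13.33, 13.35 and 13.31 against 14.04, 14.08 and 14.02. Its fold change was -0.72 (SE 0.13, adjusted p = 0.0101), and its 3 values within each group were nearly equal (SD 0.020 in K91A and 0.032 in WT, n = 3 each).

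DED81, the asparaginyl enzyme, had log2 levels of 13.01, 12.72 and 12.88 on the K91A arrays and 13.63, 13.39 and 13.55 on the WT arrays (log2 fold change -0.66, SE 0.17, adjusted p = 0.0267). SES1, the seryl enzyme, had 13.42, 13.34 and 13.46 against 13.91, 13.99 and 13.95 (-0.55, SE 0.14, adjusted p = 0.0249). In these 4 genes the K91A arrays lay close together and apart from WT. Leaving out WT 1 ended the HTS1 and GUS1 calls (adjusted p = 0.0604 and 0.0518), as did leaving out WT 2 (0.0659 and 0.0632). The DED81 call ended without K91A 3 (0.0582), WT 1 (0.112), WT 2 (0.0793) or WT 3 (0.0554), and the SES1 call without K91A 1 (0.0612), K91A 3 (0.0544), WT 1 (0.0892) or WT 2 (0.117).

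The 9 cytosolic genes that did not pass ranged from -0.93 to -0.16. They were MES1 (methionyl, -0.93, adjusted p = 0.0788), WRS1 (tryptophanyl, -0.80), VAS1 (valyl, -0.73), CDC60 (-0.70), ALA1 (alanyl, -0.69), THS1 (threonyl, -0.59), GRS1 (glycyl, -0.55), FRS1 (-0.46) and DPS1 (-0.16). CDC60 had the widest 95% interval, -1.75 to 0.34, with log2 levels of 12.41, 10.70 and 12.15 on the K91A arrays and 12.25, 12.47 and 12.64 on the WT arrays. Of the 6 arrays K91A 2 was the low one. DPS1 was at 14.19, 13.73 and 14.20 against 14.20, 14.24 and 14.15, so K91A 1 and K91A 3 were level with WT, and its 95% interval was -0.56 to 0.24.

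K91A 2 was the lowest of the K91A arrays for 16 of the 18 cytosolic genes, the others being GUS1 and GLN4, where K91A 3 was. The median difference of the 18 genes from the WT mean was -0.55 on K91A 1, -1.22 on K91A 2 and -0.55 on K91A 3. Without K91A 2 the number of cytosolic genes lower in K91A was again 9, with GLN4 losing its call and MES1 gaining one, and the median was -0.54. The count was 6 without K91A 1, 7 without K91A 3, 4 without WT 3 and 1 (TYS1) without WT 1 or without WT 2. The share of all probe sets called lower moved too. It was 10.8%, 14.5%, 9.61%, 5.64% and 5.22% in that order, and 16.8% without K91A 2. All 18 fold changes stayed negative without each array in turn, though DPS1 was only at -0.0038 without K91A 2 (limma adjusted p = 0.976).

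The cytosolic genes ALA1, GRS1, HTS1 and VAS1 are known to supply mitochondria as well. Their fold changes ran from -0.83 to -0.55 (median -0.71). By limma's test 1 of the 4 was lower and 8 of the 14 others (median -0.76), beside 14.8% of all probe sets. At an unadjusted p under 0.05, 3 of the 4 and 10 of the 14 were lower, beside 1539 of the 6931 probe sets. By the textbook division into structural classes, a grouping added after the values were known, 4 of 8 class I genes (median -0.86) and 5 of 10 class II genes (median -0.62) of the cytosol were lower.

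Among the mitochondrial enzymes, MSW1 and MSM1 were lower. MSW1, the tryptophanyl enzyme, had log2 levels of 9.85, 9.42 and 9.20 on the K91A arrays and 10.58, 10.65 and 10.40 on the WT arrays (log2 fold change -1.05, SE 0.24, adjusted p = 0.0193). MSM1, the methionyl enzyme, had 10.77, 10.82 and 10.95 against 11.58, 11.29 and 11.51 (-0.61, SE 0.18, adjusted p = 0.0399). In neither gene did the groups overlap. The K91A mean of MSW1, 9.49, lies under the level of 9.66 below which probe sets were left out, so MSW1 was tested through its WT values. Its K91A signal may be background, which leaves the size of the fall uncertain. Leaving out WT 1 (adjusted p = 0.0803) or WT 2 (0.0891) ended the MSW1 call. The MSM1 call ended in each of these cases and without K91A 1, K91A 3 or WT 3 (0.0521 to 0.148 over these 5), and also with no filter on dim probe sets (0.0548). On the values as deposited neither MSW1 (0.136) nor MSM1 (0.205) passed.

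ISM1, the mitochondrial isoleucyl enzyme, was the 1 member that passed as higher. Its deposited intensity was 1542, 1399 and 938 on the K91A arrays and 544, 720.4 and 457 on the WT arrays. Its log2 level was 10.13, 10.32 and 11.26 against 8.88, 9.16 and 8.87, with K91A 3 the highest. The log2 fold change was 1.60 (SE 0.34, 95% interval 0.80 to 2.40, adjusted p = 0.0151). Its WT mean of 8.97 lies under the level of 9.66 below which probe sets were left out, so it was tested through its K91A values, and without K91A 3 it was left out. The WT signal may be background, so the size of the rise is not given as a fold. With no filter, where its K91A values did not decide whether it was tested, it passed as well (adjusted p = 0.0141). Leaving out WT 1 ended the call (adjusted p = 0.0593).

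The other 11 mitochondrial genes ranged from -0.43 to 1.01. On the negative side lay MSR1 (arginyl, -0.43), DIA4 (seryl, -0.41), AIM10 (a putative prolyl enzyme, -0.20) and MSE1 (glutamyl, -0.11). On the positive side lay SLM5 (asparaginyl, 0.15), NAM2 (leucyl, also needed for splicing of mitochondrial introns, 0.36), MSY1 (tyrosyl, 0.37), MSF1 (phenylalanyl, 0.55), MSK1 (lysyl, 0.56), MSD1 (aspartyl, 0.67) and MST1 (threonyl, 1.01). MST1 had log2 levels of 10.80, 9.74 and 11.09 on the K91A arrays and 9.68, 9.94 and 8.98 on the WT arrays, so K91A 2 lay among the WT arrays (adjusted p = 0.110). Without K91A 2 it passed at 1.45 (adjusted p = 0.0269). Its WT mean of 9.53 lies under the level of 9.66 below which probe sets were left out, so MST1 was tested through its K91A values. Its WT signal may be background.

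NAM2 and MSF1 were split by K91A 3. NAM2 had log2 levels of 12.30, 11.83 and 10.17 on the K91A arrays and 11.23, 11.03 and 10.95 on the WT arrays, and MSF1 had 10.89, 10.25 and 9.26 against 9.41, 9.48 and 9.85. In both, K91A 1 and K91A 2 lay above all WT arrays and K91A 3 below all of them. Without K91A 3 both passed as higher, NAM2 at 0.97 (adjusted p = 0.0247) and MSF1 at 0.97 (adjusted p = 0.0455). The WT mean of MSF1, 9.58, lies under the level of 9.66 below which probe sets were left out. MSF1 was thus tested through its K91A values, was left out without K91A 1, and its WT signal may be background. MSK1 did not overlap between groups (11.84, 11.71 and 12.07 against 11.39, 11.51 and 11.03) yet missed the threshold (adjusted p = 0.081).

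For 12 amino acids both classes have a member, which gives 13 pairs because FRS1 and FRS2 share MSF1. The ratio of the cytosolic to the mitochondrial probe set was taken within each array, as a difference of quantile-normalised log2 levels. It was lower in K91A for 12 of the 13 pairs, with a median change of -1.01 and a range of -2.71 to 0.26, and for 6 pairs every K91A array lay below every WT array. On the values as deposited and with median centring it was lower for 13 of 13 pairs, with a median change of -1.13. Taking all 252 combinations of a cytosolic with a mitochondrial member, 91.7% had a lower ratio in K91A and 53.2% had every K91A array below WT, where the pairs by amino acid had 12 of 13 and 6 of 13. These are descriptions, since the pairs share genes and were given no test. ISM1, MSF1 and MST1 passed the filter on dim probe sets through their K91A values, which favours a lower ratio. DIA4 and MSW1 passed it through their WT values, which favours a higher one. With the filter at the median 5 pairs were left, and all 5 had a lower ratio in K91A, with a median change of -0.83.

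In the isoleucine pair the cytosolic gene passed as lower and the mitochondrial gene, whose WT signal may be background, as higher. The log2 ratio of ILS1 to ISM1 was 1.67, 0.54 and 0.68 over the K91A arrays in order, and 3.68, 3.59 and 3.73 on the WT arrays, a change of -2.71 that rests on those dim WT values. The ratio of TYS1 to MSY1 was 0.90, 0.64 and 0.43 against 2.64, 3.02 and 2.74, a change of -2.14. In both pairs the K91A ratios were far below all WT ratios.

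The FRS2 to MSF1 ratio was 1.06, 0.77 and 2.87 on the K91A arrays against 3.47, 3.43 and 2.79 on the WT arrays, a change of -1.66. There K91A 3 lay within the WT range, and the WT signal of MSF1 may be background. The lysine, threonine, aspartate and asparagine pairs completed the 6 without overlap, with changes of -1.63, -1.60, -0.83 and -0.81. The threonine change rests on WT values of MST1 that may be background. The tryptophan ratio, WRS1 to MSW1, had a change of 0.26, with log2 fold changes of -0.80 for WRS1 (adjusted p = 0.133) and -1.05 for MSW1. This sign depended on the scaling, since on the values as deposited WRS1 was at -1.61 and MSW1 at -1.59, and with median centring they were at -0.96 and -0.94. The K91A signal of MSW1 in this ratio may be background.

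**Figure D2:**
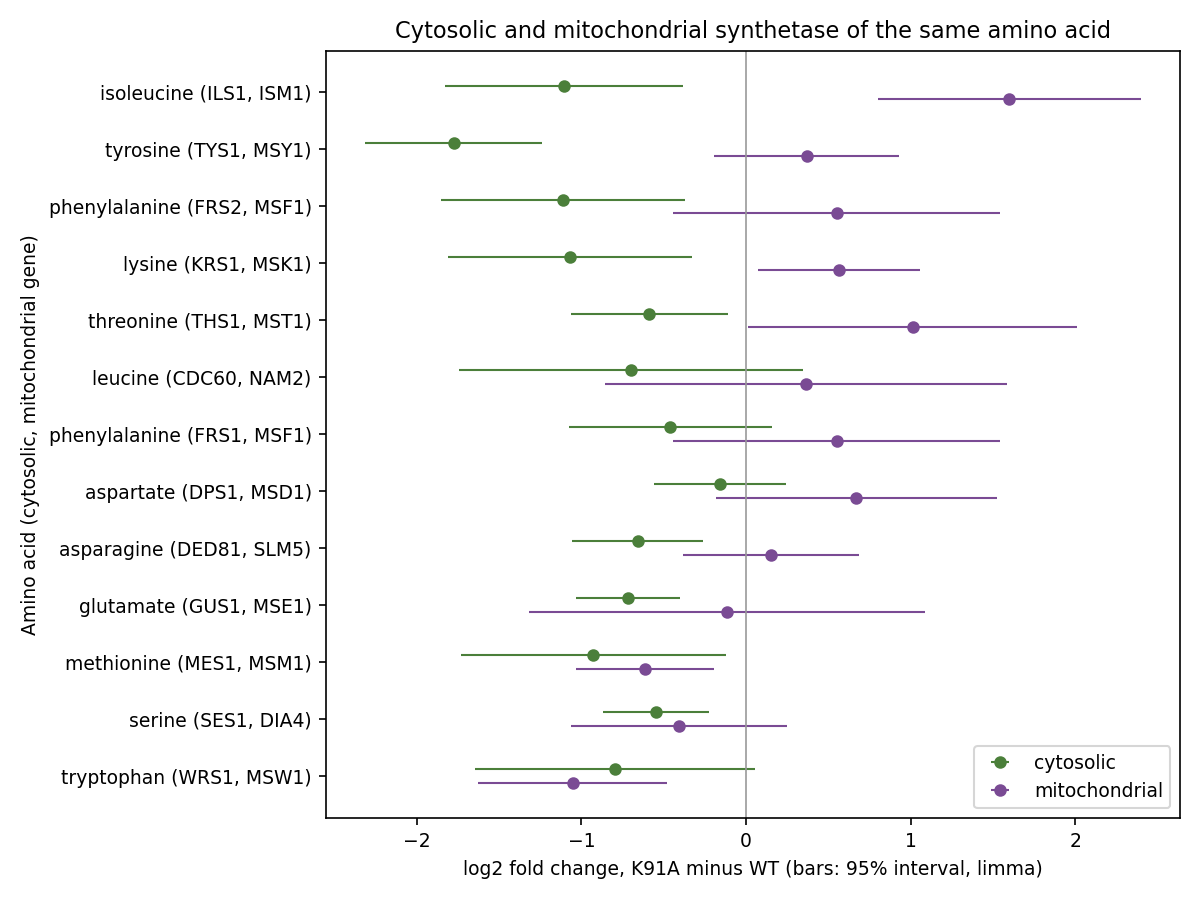
Log2 fold change, K91A minus WT, of the cytosolic (green) and the mitochondrial (purple) synthetase gene of the same amino acid, with 95% intervals from limma (n = 3 arrays a group). The cytosolic value lies to the left of the mitochondrial one in 12 of 13 pairs, and to the right of it for tryptophan, whose order turns on the values as deposited and with median centring. The WT signals of ISM1, MSF1 and MST1 and the K91A signals of MSW1 and DIA4 may be background.

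Gene length and brightness differed between the classes. Cytosolic genes had a median length of 1896 nt and mitochondrial genes 1669.5 nt, in the R64 gene table. Longer genes had higher fold changes, with a Spearman's rho of 0.215 across 5013 protein-coding genes, which are no independent replicates. Among the 2439 protein-coding genes within the members' lengths of 1140 to 3315 nt, 11.4% were lower and 18.5% higher, with a median of 0.025. Of the cytosolic members 9 of 18 were lower and 0 higher. Whether length had a part in their fold changes was not tested. With each array's length trend removed, 14.6% of the 5384 probe sets tested were lower and 16.1% higher. There 13 cytosolic genes were lower, ALA1, MES1, THS1 and VAS1 joining the 9, and the median of the 18 was -0.93. The mitochondrial counts were again 2 lower and 1 higher, with a median of 0.11.

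Cytosolic probe sets were bright and mitochondrial ones mostly dim. Among 1924 protein-coding genes within the range of mean level of the cytosolic members, 13.1% were lower and 11.5% higher, with a median of -0.14. Among 2384 within the range of the mitochondrial members, 15.4% were lower and 17.9% higher, with a median of -0.035. For 5 mitochondrial genes (DIA4, ISM1, MSF1, MST1 and MSW1) and 0 cytosolic genes, a group mean lay under the level of the filter on dim probe sets. Signal there may be background, for which no detection calls came with the values.

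**Figure D3:**
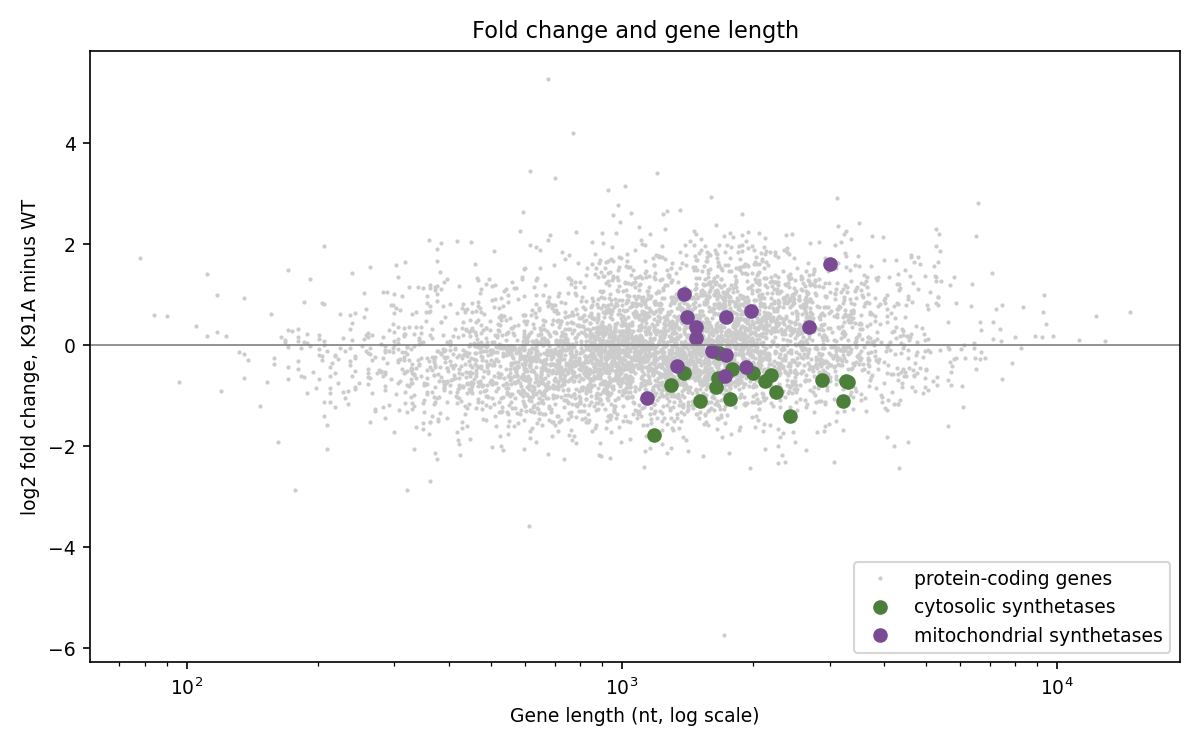
Log2 fold change, K91A minus WT, against gene length in nt (log scale) for 5013 protein-coding genes (grey), with cytosolic (green) and mitochondrial (purple) synthetases marked. Cytosolic synthetases all lie below 0 at lengths where the grey points centre near 0, and the mitochondrial ones lie on both sides. Whether length had a part in these fold changes was not tested.

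Because levels are relative to the bulk of each array, the directions were also read on the values as deposited. There the median of all probe sets was -0.82, with 9.68% called lower and 0.462% higher. Of the cytosolic genes 9 were lower, with a class median of -1.59. DED81 and SES1 lost their calls, at adjusted p = 0.0621 and 0.0643, and ALA1 and MES1 gained one. In the mitochondrial class 0 genes passed (1 at an unadjusted p under 0.05), with a median of -0.42. The mitochondrial median thus turned negative but stayed above that of all probe sets, and MSK1 (-0.16), MSD1 (-0.024), MSY1 (-0.15), NAM2 (-0.44) and SLM5 (-0.41) turned negative. ISM1 was at 1.14 there (adjusted p = 0.286). With median centring 11 cytosolic genes were lower, 2 mitochondrial genes were lower and 2 higher, beside 16.4% lower and 13.6% higher of all probe sets. The medians were -0.95 and 0.22, where that of all probe sets was -0.18. With K91A 3 counted as WT, as its description has it, limma called 0 of the 6931 probe sets (1056 at an unadjusted p under 0.05), and the class medians were -0.61 and 0.16, with 13 of 13 pair ratios lower.

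**Figure D4:**
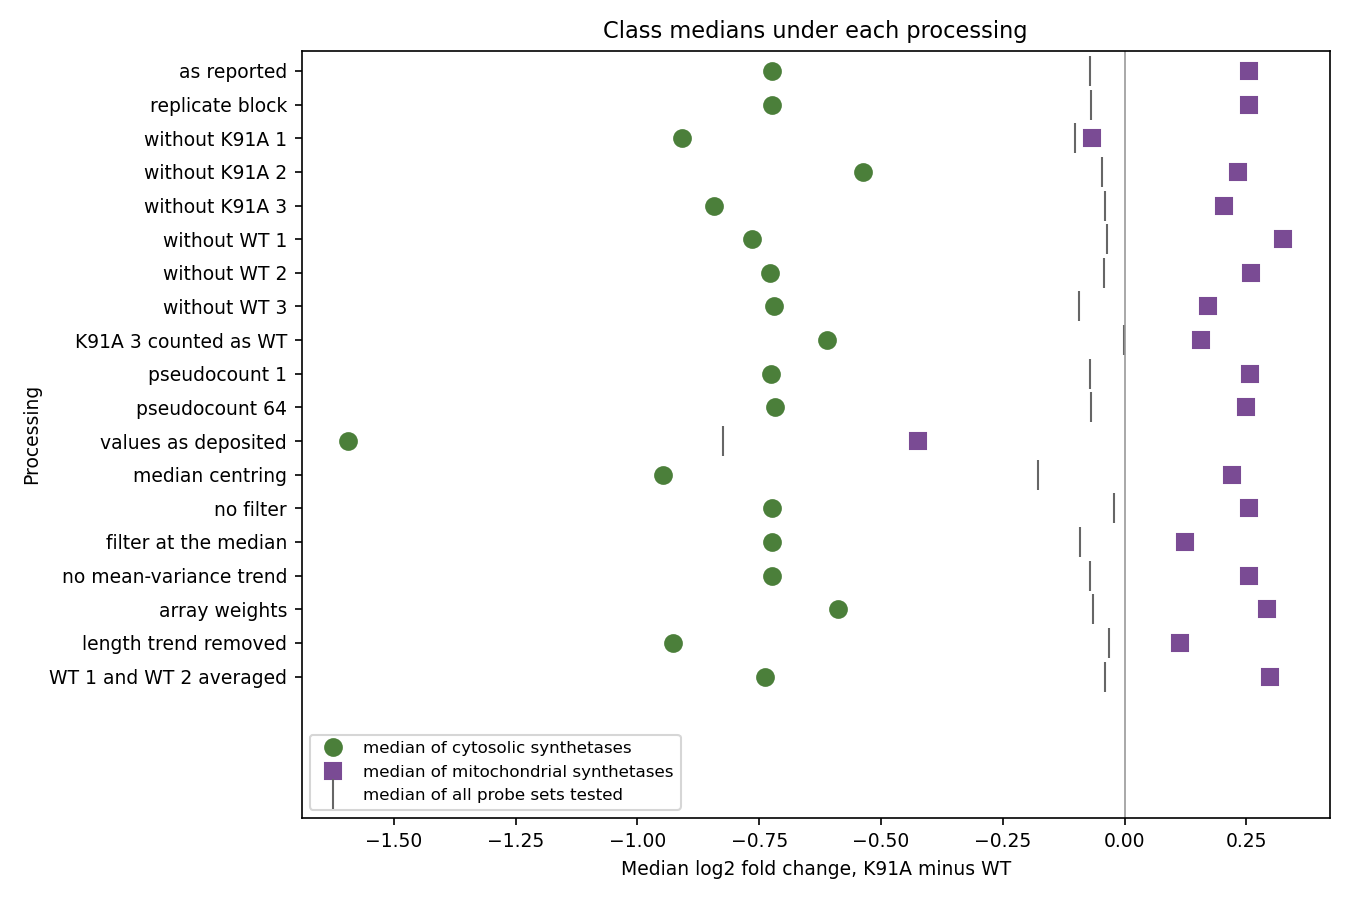
Median log2 fold change, K91A minus WT, of the cytosolic synthetases (green circles), the mitochondrial synthetases (purple squares) and all probe sets tested (grey bars) under each way of processing the values. The cytosolic median lies below that of all probe sets in every row. The mitochondrial median lies above it in every row and is negative without K91A 1 (-0.068) and on the values as deposited (-0.42). Without K91A 1 it covers 13 genes, as MSF1 fell under the filter, and without K91A 3 it covers 13, as ISM1 did. With the filter at the median it covers 6.

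Genes that work beside the synthetases were then counted. Of 7 further synthetase, cofactor and amidotransferase genes tested, 1 was higher and 0 lower by limma's test (1 in each direction at an unadjusted p under 0.05), so 14.3% were higher against 15.4% of all probe sets. GRS2, a second glycyl-tRNA synthetase gene, was higher (0.73, SE 0.20, adjusted p = 0.0352), with log2 levels of 11.77, 11.62 and 11.95 on the K91A and 11.19, 11.18 and 10.77 on the WT arrays. The remaining cytosolic synthetases did not pass: CRS1 (cysteinyl, -1.21, adjusted p = 0.0505), YDR341C (arginyl, -0.73, adjusted p = 0.123) and YHR020W (prolyl, -0.30, adjusted p = 0.176). With these 3 the cytosolic enzymes of the listed genes all had negative fold changes, apart from GRS2. HER2, a subunit of the mitochondrial enzyme that makes glutaminyl-tRNA from glutamyl-tRNA, was at 0.63 (adjusted p = 0.149).

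Of 45 tRNA processing and modification genes tested, 12 (26.7%) were lower and 0 higher by limma's test, against 14.8% and 15.4% of all probe sets. At an unadjusted p under 0.05, 20 were lower and 1 higher, against 1539 and 1496 of the 6931 probe sets. Of the 45 genes 39 had negative fold changes, and the median was -0.57. TYW1, needed to make wybutosine in phenylalanine tRNA, was at -1.21 (adjusted p = 0.00833). LHP1, the yeast La protein that binds new tRNA transcripts, was at -0.94 (adjusted p = 0.00967), the Elongator subunit ELP4 at -0.99 (adjusted p = 0.0173), and TPT1, the phosphotransferase that ends tRNA splicing, at -0.85 (adjusted p = 0.0195).

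Of 7 cytosolic elongation factor genes 1 was higher and 0 lower, by limma's test and at an unadjusted p under 0.05 alike, a share of 14.3% against 15.4% of all probe sets called higher at the adjusted p. It was HEF3, a paralog of the elongation factor YEF3, at 1.64 (adjusted p = 0.00502), while YEF3 itself was at -0.045. The 2 TEF4 probe sets disagreed, at -0.63 (adjusted p = 0.115) and 1.21 (adjusted p = 0.0851). Of 9 mitochondrial translation factor genes 1 was lower, the release factor MRF1 at -0.80 (adjusted p = 0.0268), with a median of 0.20, and the share of 11.1% lower lies beside 14.8% of all probe sets.

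Of 12 genes for sensing of uncharged tRNA and for eIF2 function, 2 were lower and 0 higher (4 and 0 at an unadjusted p under 0.05). The share of 16.7% is close to the 14.8% called lower among all probe sets. These were GCN20, which helps activate Gcn2 (-0.87, adjusted p = 0.017), and GCN3, an eIF2B subunit (-0.85, adjusted p = 0.0195). GCN4 was at 0.15 (SE 0.12, adjusted p = 0.374) and GCN2 at -0.11. GCN1 was at 0.16 by its brightest probe set, and another of its probe sets passed as higher (2.24, adjusted p = 0.00963).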

How the data were processed

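RNA of 6 yeast samples was measured on single-sample oligonucleotide arrays. The table the authors deposited holds linear intensities, 1 for each probe set on each array. Software, background correction and scaling behind them are not given in the sources used here. Gene symbols came from the platform annotation, updated by Entrez identifier, with lengths from the RefSeq table of assembly R64. The 60 controls were dropped, values became log2(intensity + 16) and arrays were quantile normalised. Then 33 probe sets lacking 2 values in either group and the 2311 dimmest (25%) were left out, leaving 6931. K91A minus WT was fitted in R 4.3.3 with limma 3.58.1 (mean-variance trend), with Benjamini-Hochberg adjustment over all probe sets and a threshold of 0.05. The brightest probe set stood for a gene. The procedure was tested on simulated data. Every called member is shown by array, and up to 4 genes of each other list were named by smallest p, further ones after their values were seen. Members, lists and alternatives were chosen with earlier results of these data known. Same-numbered arrays did not deviate together (correlations of deviations 0.15, -0.14 and -0.02), so numbers did not pair arrays. The number of arrays limits precision. No sequences are shown.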

Additional observations from a re-analysis of the deposited data

How the results depend on the processing

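All 18 cytosolic fold changes stayed negative in each of 18 refits, though DPS1 was only at -0.0038 without K91A 2. The array number and signals near background limit the mitochondrial values. For alternatives that moved a result, the cause was not tested unless stated. The reported counts are 12 called members, 9 of them cytosolic and lower and 3 mitochondrial, and 17 other genes of tRNA charging and translation. The replicate block gave 6 members, 4 cytosolic and 10 other genes, with 10.1% of all probe sets called lower and 12% higher. The labels do not say whether arrays of the same number belong together. Leaving out single arrays gave 1 to 13 members, 1 to 9 cytosolic genes, 0 to 4 mitochondrial genes and 2 to 24 other genes, with cytosolic medians of -0.91 to -0.54, mitochondrial medians of -0.068 to 0.33 and pair ratio changes of -1.19 to -0.85. The low counts came without WT 1 (1, 1, 0 and 3) and WT 2 (2, 1, 1 and 2), and 6, 4 and 9 (members, cytosolic and other) came without WT 3. With single arrays left out, 5.22% to 16.8% of all probe sets were called lower and 6.91% to 16.5% higher. Without K91A 1 the filter left out MSF1, and without K91A 3 it left out ISM1, so those mitochondrial medians cover 13 genes. The median of -0.068 is thus not of the same genes as the reported one. NAM2 ranged from -0.068 (without K91A 1) to 0.97 (without K91A 3), and MSE1 turned to 0.33 without K91A 3, 0.12 without WT 1 and 0.053 without WT 3. With WT 1 and WT 2 averaged the counts were 1, 1, 0 and 3, with 5.45% of all probe sets called lower and 7.33% higher. With K91A 3 counted as WT limma called 0 in all 4 counts (8 cytosolic, 2 mitochondrial and 19 other genes at an unadjusted p under 0.05), and MSE1 (0.59) and SLM5 (-0.044) changed sign. On the values as deposited, which keep brightness differences between arrays, the cytosolic median was -1.59, the mitochondrial median -0.42 with 0 called (1 at an unadjusted p under 0.05), and 7 other genes were called, while MSD1 (-0.024), MSK1 (-0.16), MSY1 (-0.15), NAM2 (-0.44) and SLM5 (-0.41) changed sign. Of all probe sets, 9.68% were called lower and 0.462% higher on the values as deposited. Array weights called 22.7% of all probe sets lower and 21.2% higher, and gave 5 mitochondrial and 29 other genes, with MSE1 at 0.21. A filter at the median kept 6 mitochondrial genes, of which 1 was called. Over all 566 refits of single members, 462 kept direction and side of the threshold, 72 lost and 20 gained a call, and 12 changed sign. Taking all probe sets of the members changed nothing, as each has 1.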
